A study of Mus musculus with 15 samples.

Results

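Genes that carry sterols out of the lysosome and between membranes inside the cell were followed through 15 bulk RNA-seq libraries of BV2 cells, an immortalized mouse microglial line. The set held 10 genes, given by name: *Npc1*, *Npc2*, *Lipa*, *Stard3*, *Gramd1a*, *Gramd1b*, *Osbp*, *Osbpl9*, *Cyp27a1* and *Ch25h*. All 10 were among the 54390 genes of the count tables. Of these, 9 had enough counts to be tested together with the other genes of the 14237 tested, and *Ch25h* had 0 counts in every library.

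The cells fell into 4 groups. WT non-foamy cells (labelled Trem2WT, n = 4 libraries) and Trem2-/- non-foamy cells (labelled Trem2KO, n = 3) were kept in media alone, and WT foamy (n = 4) and Trem2-/- foamy cells (n = 4) were given 20 µg/ml soluble cholesterol overnight, which loads macrophage-like cells with lipid. The design asks how cholesterol loading changes the transcriptome and whether loss of Trem2, a lipid-sensing receptor of myeloid cells, alters that response. Per the methods, the Trem2-/- cells came from Cas9-expressing BV2 cells transfected with a guide RNA against *Trem2*, and clones were isolated by limiting dilution, so clone and genotype cannot be told apart. The methods describe soluble cholesterol as prepared with methyl-beta-cyclodextrin, and non-foamy cells received no such carrier in their media, so sterol and carrier cannot be told apart either. The sources used here do not say how many clones were sequenced, whether WT cells had gone through cloning, or whether replicate libraries came from separate cultures. The p-values therefore measure the spread between these libraries, which may be technical.

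Cholesterol that arrives with lipoproteins is set free from its esters in the lysosome by the acid lipase LIPA, handed by the soluble protein NPC2 to the membrane protein NPC1, and passed on to other membranes. At sites where organelles touch, STARD3, OSBP and the OSBP-related protein ORP9 (gene *Osbpl9*) bind sterols or lipids between the endoplasmic reticulum and the endosome or Golgi, while the GRAMD1 proteins, also called Asters, carry cholesterol from the plasma membrane to the endoplasmic reticulum. CYP27A1 in mitochondria and CH25H in the endoplasmic reticulum turn cholesterol into oxysterols, which activate the LXR receptors and restrain the SREBP2 pathway of cholesterol synthesis.

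Between 23538963 and 41683825 reads were counted per library. *Trem2* itself was lower in Trem2-/- cells, with a mean of 222.2 ± 8.79 CPM (SD, n = 3) against 354 ± 41.2 (n = 4) in non-foamy cells and 224.4 ± 4.56 against 372.9 ± 26.4 (n = 4 each) in foamy cells. CPM, used throughout, scale the counts of a library to a common size after TMM normalization. General macrophage markers were present in every library, at 6641 to 8496 CPM summed over 12 genes in WT and 11050 to 12120 CPM in Trem2-/- libraries. Within these sums *Lyz2* alone held 3010 to 6690 CPM, and *Cx3cr1* only 0.149 to 1.96 CPM. By contrast, 6 markers of resident microglia summed to at most 12.4 CPM, with *Sall1* at 0 throughout. A list of 12 markers of other cell types summed to at most 0.882 CPM. The 8 markers of proliferation summed to 2633 to 2769 CPM in WT non-foamy, 2286 to 2489 in WT foamy and 1582 to 1739 CPM in Trem2-/- libraries. WT non-foamy replicate 3 and WT foamy replicate 1 deviated from their group means most steeply with gene length (Spearman rho across genes of -0.335 and 0.304). The other libraries had -0.227 to 0.275, so the second led narrowly. Where a member's call changed without both steep libraries, its value is given with and without them. With GC content, Trem2-/- foamy replicate 4 ran most steeply (-0.442, against -0.269 to 0.32 in the others). Within its group it held the lowest *Npc1*, *Stard3*, *Gramd1a*, *Gramd1b* and *Osbp* and the highest *Npc2*, *Lipa* and *Osbpl9*.

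The members sit on 8 chromosomes of GRCm38 (GENCODE M21 annotation), and *Lipa* and *Ch25h* are close neighbours on chromosome 19, at 34492318 to 34527474 and 34473778 to 34475164. RefSeq gave windows from 250 bases before to 50 bases after the transcription start (GRCm38.p6) for 8 of the 10 members, 9 windows in all. Those of *Cyp27a1*, the member that responded to cholesterol, of *Npc2* and *Lipa*, the members with the highest levels, and of *Stard3*, which holds a sterol response motif, are shown from 5′ to 3′ on the strand of the gene (chr1:74713285-74713584, plus strand; chr12:84773063-84773362, minus strand; chr19:34527425-34527724, minus strand; chr11:98358118-98358417, plus strand). Capitals mark CCAAT or its reverse complement ATTGG and, in *Stard3*, TCACNCCAC.
Cyp27a1: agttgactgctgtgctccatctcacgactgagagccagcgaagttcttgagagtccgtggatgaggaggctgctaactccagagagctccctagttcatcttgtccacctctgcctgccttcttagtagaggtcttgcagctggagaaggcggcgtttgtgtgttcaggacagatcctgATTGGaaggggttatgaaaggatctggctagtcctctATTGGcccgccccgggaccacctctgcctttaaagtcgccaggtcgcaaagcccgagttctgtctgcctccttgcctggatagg
Npc2: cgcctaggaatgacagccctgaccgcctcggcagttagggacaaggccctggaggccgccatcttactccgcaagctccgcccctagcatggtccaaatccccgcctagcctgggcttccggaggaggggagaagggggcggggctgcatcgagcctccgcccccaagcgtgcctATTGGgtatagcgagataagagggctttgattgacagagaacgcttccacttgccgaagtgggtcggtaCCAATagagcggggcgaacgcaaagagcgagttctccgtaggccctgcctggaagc
Lipa: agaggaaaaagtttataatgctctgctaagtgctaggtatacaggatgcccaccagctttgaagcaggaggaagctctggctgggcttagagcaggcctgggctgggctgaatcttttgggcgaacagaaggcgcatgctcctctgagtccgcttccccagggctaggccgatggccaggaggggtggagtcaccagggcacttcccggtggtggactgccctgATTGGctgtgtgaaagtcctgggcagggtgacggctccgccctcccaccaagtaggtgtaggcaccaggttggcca
Stard3: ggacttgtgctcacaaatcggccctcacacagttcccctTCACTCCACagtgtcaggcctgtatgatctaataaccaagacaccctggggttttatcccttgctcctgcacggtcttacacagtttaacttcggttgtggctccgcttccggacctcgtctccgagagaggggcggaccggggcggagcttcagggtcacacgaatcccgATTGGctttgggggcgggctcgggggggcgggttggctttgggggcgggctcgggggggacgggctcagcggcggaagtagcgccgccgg
The letters CCAAT stood on either strand in 8 of the 9 windows, with *Osbpl9* counted for each of its windows and *Ch25h* as the exception. They stood in 37.4% of 32851 promoter windows. As CCAAT was chosen after the member sequences were read, that share is no test of an excess. TCACNCCAC stood in the *Stard3* window and in 1.24% of all windows. The E-box TCACGTGA used by TFEB and TFE3 was in 0 of 9 (0.974% of all windows), as were its core CACGTG (7.15%), the LXR direct repeat with a gap of 4 bases (0.0152%), its single unit AGGTCA (16.3%) and the motif of interferon-responsive genes (3.44%). A match is a string of letters, and neither a match nor its lack says whether a factor binds.

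Levels can be compared between genes only per length. Per kilobase of exons, *Npc2* was the most abundant member in every group, at 222.7 ± 25.8 CPM per kb in WT non-foamy (SD, n = 4) and 412.2 ± 6.31 in Trem2-/- non-foamy cells (n = 3). *Lipa* came second, at 32.15 ± 2.19 and 48.16 ± 1.67 CPM per kb. The libraries of *Npc2* and *Lipa* overlapped neither each other nor the next gene in any group. *Cyp27a1*, *Osbpl9*, *Stard3* and *Gramd1a* followed within 8.105 to 10.64 CPM per kb in WT non-foamy cells, where *Cyp27a1* overlapped *Osbpl9* and *Osbpl9* overlapped *Stard3*. *Osbp* lay at 6.933 ± 1.21, *Gramd1b* at 3.725 ± 0.432 and *Npc1* at 1.899 ± 0.210 CPM per kb. The order below *Lipa* depends on the length used, and *Cyp27a1* ranked 3 by all annotated exons but 4 to 6 by the longest coding transcript. By all annotated exons, *Npc1* and *Gramd1b* overlapped in Trem2-/- cells, at 3.306 ± 0.258 and 3.178 ± 0.0707 CPM per kb in non-foamy cells. By the longest coding transcript, *Npc1* had a mean of 7.161 there, against 7.044 for *Osbp* and 4.276 for *Gramd1b*.

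**Figure D1:**
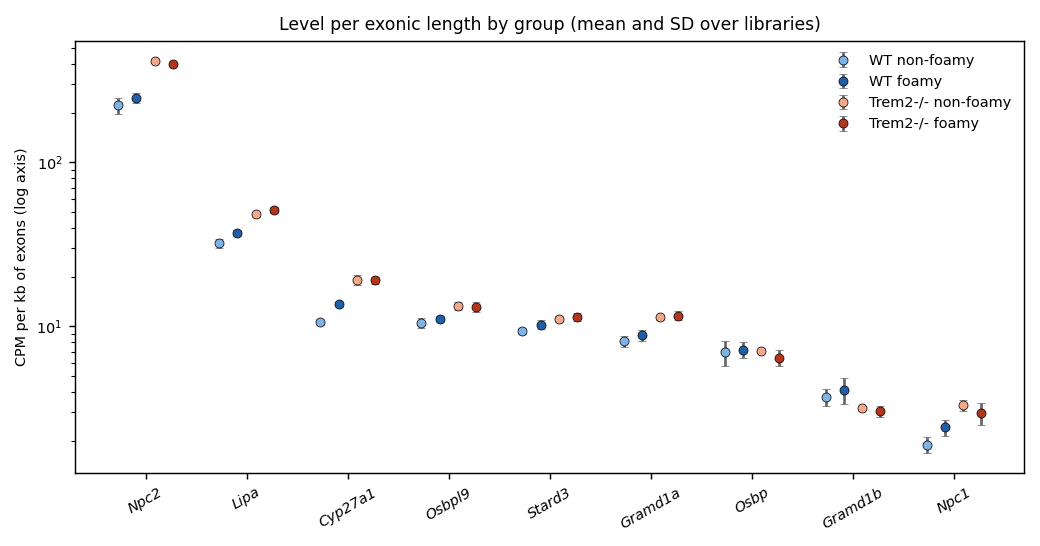
Mean level of the 9 detected members per kilobase of annotated exons, in CPM per kb on a log axis, with SD over libraries (n = 4, 4, 3 and 4). *Npc2* stands above all others in every group (222.7 to 412.2 CPM per kb), and by this length *Npc1* and *Gramd1b* lie lowest.

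In WT cells, cholesterol raised 1 of the 9 tested members, *Cyp27a1*, and lowered 0 (edgeR quasi-likelihood test, Benjamini-Hochberg adjusted p under 0.05 over all tested genes). Of all 14237 genes, 2.80% passed this test, with 1.66% of all genes higher and 1.14% lower in foamy cells. A single call among 9 genes is too few to read against that share. The 9 estimates all lay above 0, where 51.2% of all genes did, and their median log2 difference was 0.14 against 0.01 for all genes. For 3 members, *Npc1*, *Lipa* and *Cyp27a1*, every foamy library was above every non-foamy one, which held for 4.56% of all genes, while 5.16% were lower without overlap and no member was. The summed proliferation markers were lower in every WT foamy than in every WT non-foamy library, with 3 of 8 called lower, and their part in these responses was not tested.

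*Cyp27a1* encodes the sterol 27-hydroxylase, which makes 27-hydroxycholesterol. WT non-foamy libraries held 22.9, 23.4, 21.9 and 24.3 CPM, and WT foamy libraries 30.7, 29.6, 28.0 and 29.8 CPM. Trem2-/- libraries held 43.9, 38.2 and 43.5 CPM without and 43.6, 40.0, 39.8 and 42.8 CPM with cholesterol. The WT groups were separate from each other, all 7 Trem2-/- libraries lay above all 8 WT libraries, and foamy and non-foamy Trem2-/- libraries overlapped. In WT cells the level rose 1.28-fold (log2 difference 0.35, s.e. 0.07, adjusted p = 0.0059, edgeR, n = 4 against 4; higher in 4 of 4 libraries). The difference between Trem2-/- foamy and non-foamy cells was -0.01 (95% interval -0.16 to 0.14, adjusted p = 0.991, edgeR, n = 4 against 3).

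For *Cyp27a1* the Trem2-/- response was smaller than the WT response by a log2 difference of -0.36 (95% interval -0.57 to -0.16, adjusted p = 0.0446, edgeR). It was the only member called in that test, among 3.64% of all genes, 1.99% higher and 1.64% lower. This call sat at the threshold: the estimate stayed between -0.43 and -0.32 over 23 alternatives, but the adjusted p ranged from 0.00909 to 0.145 and passed in 8 of them. It passed in 4 of the 15 fits that left out 1 library, those without WT non-foamy replicate 4, WT foamy replicate 3, Trem2-/- non-foamy replicate 2 or Trem2-/- foamy replicate 4, and missed the threshold without any one of the others (largest adjusted p 0.145, without Trem2-/- non-foamy replicate 1). By contrast, the WT response of *Cyp27a1* passed in all 24 alternatives, with log2 differences of 0.31 to 0.38.

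**Figure D2:**
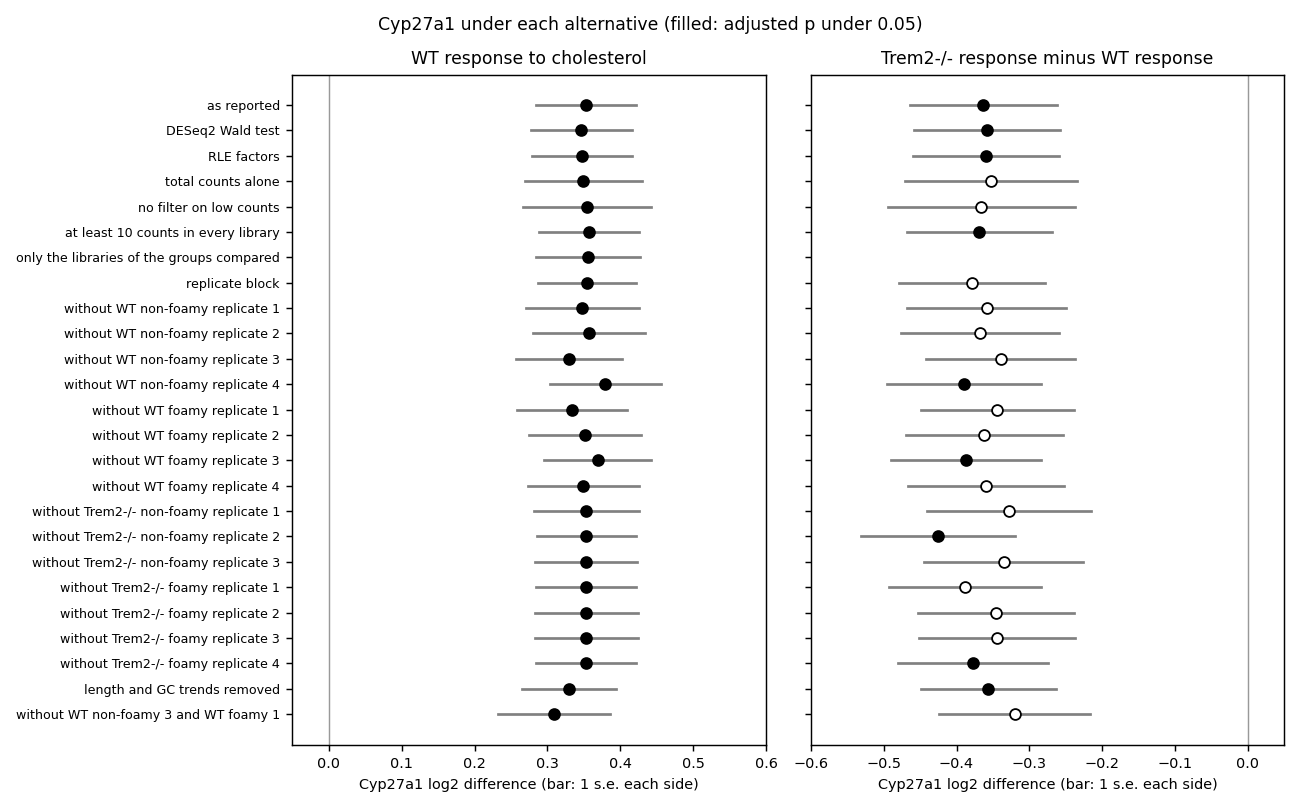
Log2 difference of *Cyp27a1* as reported and under each alternative (rows), for the WT response to cholesterol (left) and for the Trem2-/- minus the WT response (right); bars reach 1 s.e. to each side and filled points passed an adjusted p under 0.05. Every point on the left is filled, while those on the right keep values of -0.43 to -0.32 and are filled in the reported test and 8 alternatives; the fit on the groups compared alone has no value on the right.

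*Npc1*, the lysosomal membrane protein whose loss causes Niemann-Pick disease type C, stood at 23.2, 22.6, 18 and 22.1 CPM in WT non-foamy and at 30.3, 30, 24.1 and 25.3 CPM in WT foamy libraries. Trem2-/- libraries held 40.1, 37.8 and 34.3 CPM without and 38.2, 35.6, 33.9 and 26.4 CPM with cholesterol. The WT groups were separate by a narrow margin, and Trem2-/- foamy replicate 4 fell within the WT foamy range. The WT response of *Npc1* was 0.35 on the log2 scale (95% interval 0.13 to 0.57) with an adjusted p = 0.08 in edgeR (n = 4 against 4). It passed in 5 of 24 alternatives, and without the 2 steep libraries, which held its lowest non-foamy and highest foamy value, it was 0.23 (adjusted p = 0.256). Its response in Trem2-/- cells was -0.16 (95% interval -0.39 to 0.08, adjusted p = 0.867, edgeR, n = 4 against 3), and the difference between the responses was -0.51 (95% interval -0.83 to -0.18, adjusted p = 0.0731, edgeR).

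*Lipa*, the only member that hydrolyses cholesteryl esters, had 214, 232, 199 and 227 CPM in WT non-foamy and 248, 268, 247 and 246 CPM in WT foamy libraries. Trem2-/- libraries had 326, 338 and 316 CPM without and 353, 350, 330 and 358 CPM with cholesterol. The WT groups did not overlap and the Trem2-/- groups did. The WT response was 0.21 (95% interval 0.09 to 0.33, adjusted p = 0.0545, edgeR, n = 4 against 4), just short of the threshold, and it passed in 5 of 24 alternatives. The Trem2-/- response was 0.09 (95% interval -0.04 to 0.22, adjusted p = 0.867, edgeR, n = 4 against 3), and the difference between the responses was -0.12 (95% interval -0.30 to 0.06).

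The remaining tested members gave WT responses of 0.05 to 0.15 on the log2 scale, none of which passed the test. *Npc2* had 0.15 (95% interval -0.002 to 0.30), and 1 library bore on this value. Its WT non-foamy libraries held 1138, 1166, 1419 and 1121 CPM, and replicate 3, which ran steeply with gene length, reached the level of the WT foamy libraries at 1213, 1366, 1416 and 1374 CPM. Without that replicate the response was 0.23 and passed (adjusted p = 0.0274, edgeR), and with WT foamy replicate 1 also left out it was 0.28 (adjusted p = 0.000697, edgeR). The difference between the responses of *Npc2* was -0.20 (95% interval -0.42 to 0.02, adjusted p = 0.339, edgeR), and without both steep libraries it was -0.33 and passed (adjusted p = 0.00278). *Gramd1b* and *Osbp* moved the other way under the same exclusion, from 0.14 to -0.07 and from 0.05 to -0.12, with neither value past the threshold. *Stard3* (0.13), *Gramd1a* (0.12) and *Osbpl9* (0.09) lay between 0.05 and 0.16 over all 24 alternatives.

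In Trem2-/- cells, 0 of the 9 members were called in the response to cholesterol, and 0 of them had an unadjusted p under 0.05 in edgeR. DESeq2 also called 0. Over all genes, 0.140% were called, 0.105% higher and 0.0351% lower, so 0 calls among 9 genes cannot be read against that share. No member had separate foamy and non-foamy libraries, against 5.38% of all genes that were higher without overlap and 3.88% that were lower. Estimates ran from -0.16 for *Npc1* to 0.09 for *Lipa*, with 3 above 0 and 6 below, and a median of -0.02. All 9 estimates of the difference between the responses lay below 0, with a median of -0.18, where 50.4% of all genes lay below 0. Beside *Cyp27a1* (unadjusted and adjusted p under 0.05) only *Npc1* had an unadjusted p under 0.05 in that test, and the intervals of the other 7 members covered 0, the widest being that of *Osbp* (-0.51 to 0.15). Without both steep libraries the differences were -0.38 for *Npc1*, -0.05 for *Stard3*, -0.04 for *Gramd1a*, -0.001 for *Gramd1b*, -0.005 for *Osbp* and -0.17 for *Osbpl9*, none past the threshold, and -0.32 for *Cyp27a1* (adjusted p = 0.071, edgeR).

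**Figure D3:**
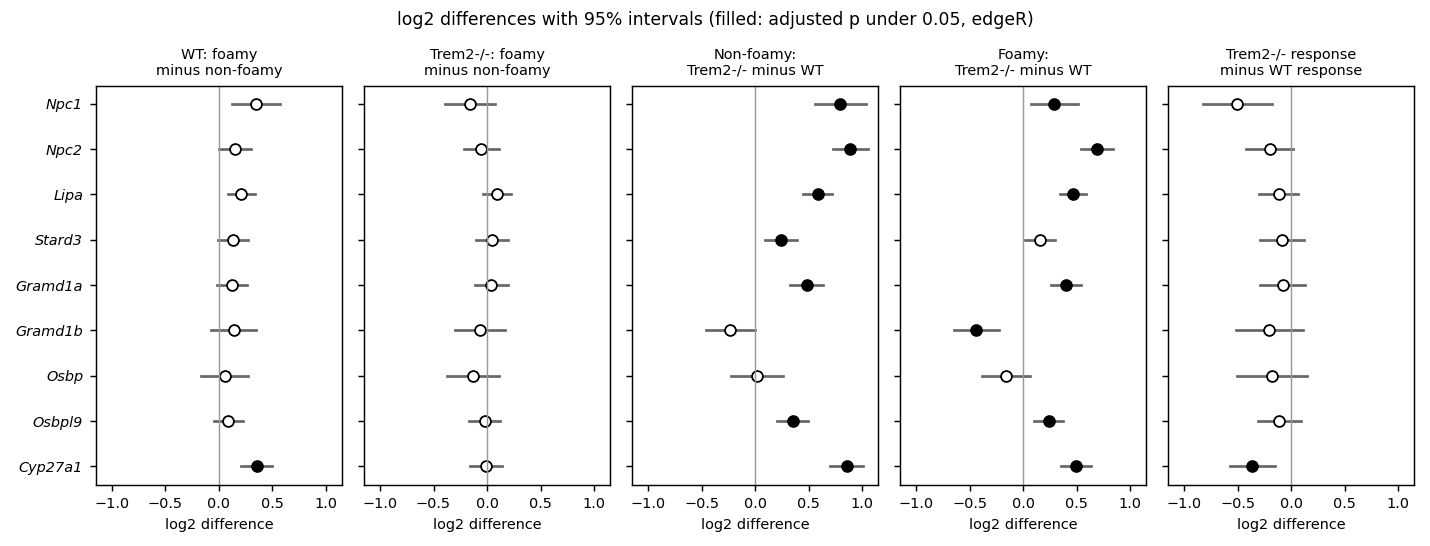
Log2 difference of each tested member in the 5 comparisons, with 95% intervals from the fitted model; filled points passed an adjusted p under 0.05 in edgeR. *Cyp27a1* is the member filled in the WT response, no member is filled in the Trem2-/- response, and 7 are filled in each comparison of the genotypes, with *Gramd1b* on the lower side in foamy cells.

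Without cholesterol, 7 of the 9 tested members were higher in Trem2-/- than in WT cells and 0 were lower, where 21.0% of all genes were higher, 22.6% lower and 43.6% called in either direction. The same 7 had every Trem2-/- library above every WT library, against 22.6% of all genes. Their order ran from *Npc2* (log2 difference 0.89) over *Cyp27a1* (0.85), *Npc1* (0.80), *Lipa* (0.58), *Gramd1a* (0.48) and *Osbpl9* (0.35) to *Stard3* (0.24), and the median of the 9 was 0.48 against 0.02 for all genes. With cholesterol, 6 were higher and *Gramd1b* was lower, where 14.3% of all genes were higher, 15.9% lower and 30.2% called in all. In that comparison 5 members were higher without overlap (13.8% of all genes) and *Gramd1b* was lower without overlap (15%). The sum of macrophage markers was also higher and that of proliferation markers lower in every Trem2-/- library, as given above, and their part in these differences was not tested. Of the 12 macrophage markers 8 were called higher in each state. *Cx3cr1* was called lower in both (-2.35 and -0.98) and *Fcgr1* lower without cholesterol (-0.21). In such bulk samples fewer expressing cells and less RNA per cell cannot be told apart. The WT non-foamy and WT foamy libraries serve both the genotype comparisons and the cholesterol response, so the values are set side by side without relating them.

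Of the lysosomal members, *Npc2*, the soluble sterol carrier, held 2281, 2226 and 2219 CPM in Trem2-/- non-foamy and 2164, 2078, 2147 and 2246 CPM in Trem2-/- foamy libraries. These lay far above the WT values, of which none exceeded 1419 CPM. The level was 1.85-fold higher without cholesterol (log2 0.89, s.e. 0.08, adjusted p = 4.8e-09, edgeR, n = 3 against 4) and 1.61-fold higher with it (0.69, s.e. 0.07, adjusted p = 2.52e-07, n = 4 against 4). *Lipa* was 1.5-fold higher without cholesterol (log2 0.58, s.e. 0.06, adjusted p = 1.14e-07, edgeR, n = 3 against 4) and 1.38-fold higher with it (0.46, s.e. 0.06, adjusted p = 3.08e-06, n = 4 against 4). *Npc1* was 1.74-fold higher in non-foamy cells (log2 0.80, s.e. 0.12, adjusted p = 5.76e-06, edgeR, n = 3 against 4). In foamy cells *Npc1* was 1.22-fold higher (0.29, s.e. 0.11, adjusted p = 0.0413, edgeR, n = 4 against 4), a call that was lost without any one of WT foamy replicates 3 and 4, Trem2-/- non-foamy replicate 2 and Trem2-/- foamy replicates 1, 2 and 3, where adjusted p reached 0.149.

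**Figure D4:**
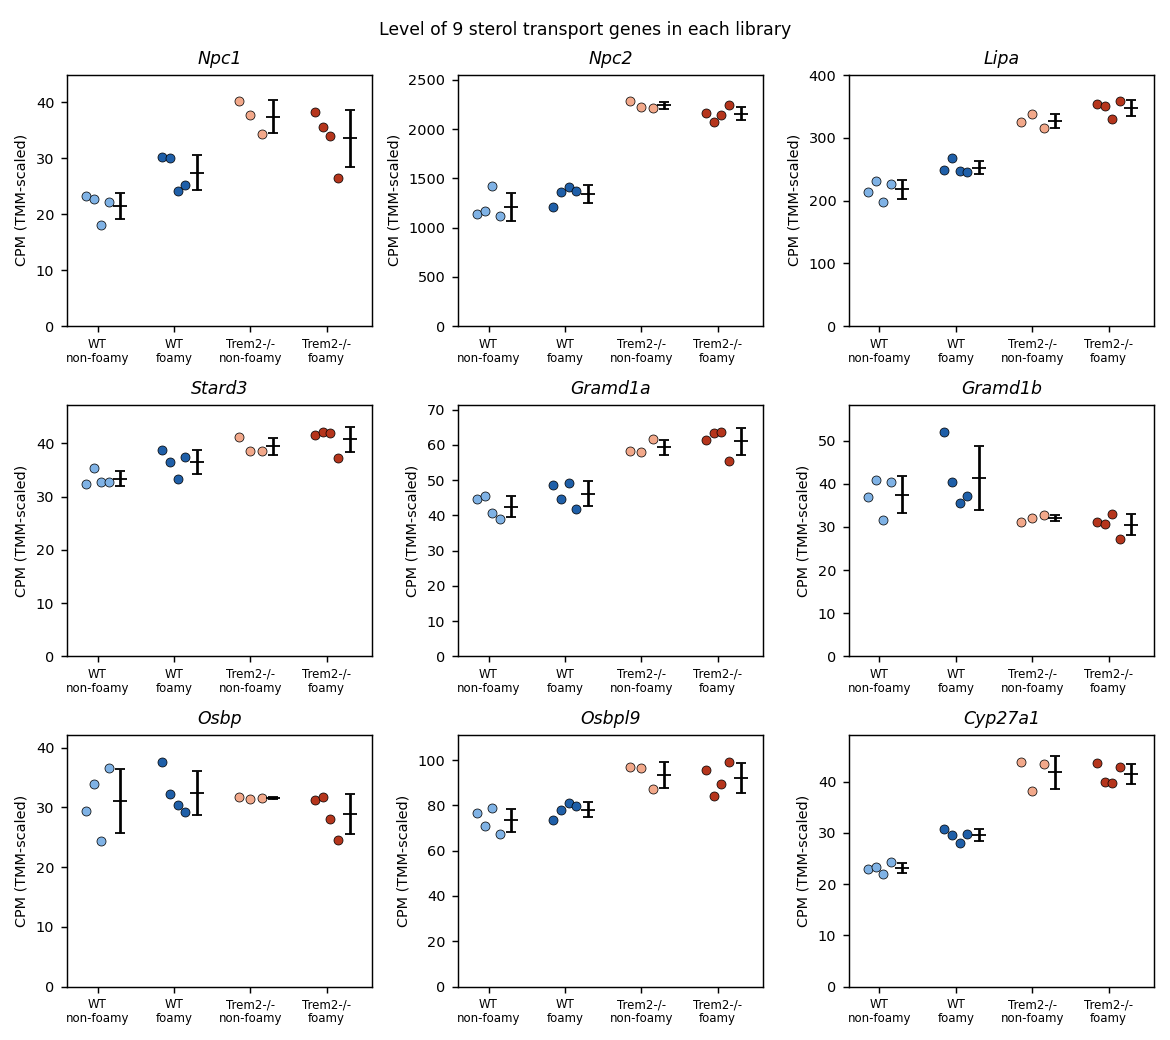
Level of each detected member in every library, in TMM-scaled CPM from 0, with the mean and SD of each group to the right of its points (n = 4, 4, 3 and 4). The 7 Trem2-/- libraries stand above all 8 WT libraries for *Npc2*, *Lipa*, *Gramd1a*, *Osbpl9* and *Cyp27a1*, and *Gramd1b* is lower in all Trem2-/- than in all WT foamy libraries.

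*Cyp27a1* was 1.81-fold higher in Trem2-/- than in WT non-foamy cells (log2 0.85, s.e. 0.07, adjusted p = 3.74e-09, edgeR, n = 3 against 4). In foamy cells it was 1.41-fold higher (0.49, s.e. 0.07, adjusted p = 8.97e-06, edgeR, n = 4 against 4). Both calls held in all 24 alternatives. The other oxysterol-producing member, *Ch25h*, the cholesterol 25-hydroxylase that macrophages induce under interferon and microbial stimuli, was at 0 counts in all 15 libraries. A floor of 3 counts allows up to 0.0669 to 0.132 CPM per library, an interval that covers counting error only. A count of 0 throughout was shared by 34% of the 21793 protein-coding genes in the tables, and the antisense transcript *Gm26902*, which shares 11.5% of the exonic bases of *Ch25h*, had 4 counts in all.

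The contact-site members differed in direction. *Gramd1a* held 44.5, 45.5, 40.8 and 39.0 CPM in WT non-foamy, 48.7, 44.7, 49.3 and 42.0 in WT foamy, 58.2, 58.1 and 61.8 in Trem2-/- non-foamy and 61.4, 63.3, 63.8 and 55.5 CPM in Trem2-/- foamy libraries. All Trem2-/- libraries lay above all WT libraries. The differences were 1.40-fold in non-foamy cells (log2 0.48, s.e. 0.07, adjusted p = 1.34e-05, edgeR, n = 3 against 4) and 1.32-fold in foamy cells (0.40, s.e. 0.07, adjusted p = 0.00011, n = 4 against 4).

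*Gramd1b*, its paralog and the Aster that delivers sterol in steroid-producing tissue, held 37.0, 41.0, 31.6 and 40.5 CPM in WT non-foamy and 52.1, 40.4, 35.5 and 37.3 CPM in WT foamy libraries. Trem2-/- libraries held 31.3, 32.1 and 32.7 CPM without and 31.2, 30.8, 33.1 and 27.1 CPM with cholesterol. In foamy cells the genotypes were separate, and in non-foamy cells WT replicate 3 fell among the Trem2-/- values. In foamy cells *Gramd1b* fell by 26.1% in Trem2-/- relative to WT (log2 -0.44, s.e. 0.10, adjusted p = 0.00231, edgeR, n = 4 against 4), and it passed in all 24 alternatives. In non-foamy cells the difference was -0.23 (95% interval -0.46 to -0.002, adjusted p = 0.0967, edgeR, n = 3 against 4). It passed there in 7 of 24 alternatives, among them the fit without WT non-foamy replicate 3 (-0.30, adjusted p = 0.0229, edgeR) and the fit without both steep libraries (-0.30, adjusted p = 0.00277).

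*Stard3*, the late endosomal sterol carrier with a START domain, ranged from 32.4 to 35.5 CPM in WT non-foamy, 33.3 to 38.7 in WT foamy, 38.5 to 41.2 in Trem2-/- non-foamy and 37.3 to 42.2 CPM in Trem2-/- foamy libraries. It was 1.18-fold higher in Trem2-/- non-foamy cells (log2 0.24, s.e. 0.07, adjusted p = 0.00884, edgeR, n = 3 against 4), the smallest called difference among the members in non-foamy cells. The call was lost without Trem2-/- non-foamy replicate 1 (adjusted p = 0.0588) and under total-count scaling (0.394). In foamy cells the difference was 0.16 (95% interval 0.02 to 0.30, adjusted p = 0.0749, edgeR, n = 4 against 4), with overlap between the groups, and it passed without Trem2-/- foamy replicate 4 (adjusted p = 0.0313) and, at 0.19, without both steep libraries.

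*Osbpl9* ranged from 67.5 to 78.9 CPM in WT non-foamy, 73.7 to 81.0 in WT foamy, 87.1 to 96.9 in Trem2-/- non-foamy and 84.3 to 99.2 CPM in Trem2-/- foamy libraries. It was 1.27-fold higher in Trem2-/- non-foamy cells (log2 0.35, s.e. 0.07, adjusted p = 0.000336, edgeR, n = 3 against 4) and 1.18-fold higher in foamy cells (0.24, s.e. 0.07, adjusted p = 0.00846, n = 4 against 4). The call in foamy cells was lost under total-count scaling (0.11, adjusted p = 0.134, edgeR). *Osbp*, which exchanges cholesterol for phosphatidylinositol 4-phosphate at the Golgi, passed in neither, at 0.02 (95% interval -0.22 to 0.26, n = 3 against 4) and -0.16 (95% interval -0.39 to 0.06, n = 4 against 4). Its libraries spread from 24.4 to 36.7 CPM in WT non-foamy cells and from 31.4 to 31.8 CPM in Trem2-/- non-foamy cells. The sign of its non-foamy difference turned under total-count scaling and without WT non-foamy replicate 1 or 3.

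Members moved with each other across the 15 libraries in a way that mostly followed the groups. *Lipa* and *Cyp27a1* had the highest Pearson correlation of log2 CPM (0.963). After the group means were taken away, that value was 0.271, whereas *Gramd1b* and *Osbp* had 0.838, *Npc2* and *Osbp* -0.844 and *Npc2* and *Gramd1b* -0.843. These points share their libraries and depth, and WT non-foamy replicate 3 held the highest *Npc2* and the lowest *Osbp* and *Gramd1b* of its group. Among 9647 genes whose mean level reached 5 CPM, the closest patterns over the 15 libraries were *Reps2*, *Arhgap19* and *Nceh1* for *Cyp27a1* (0.985, 0.981 and 0.980), *Dhrs3*, *Cybb* and *Cat* for *Lipa* (0.979, 0.979 and 0.978), and *Zfas1*, *Itm2b* and *Lyz2* for *Npc2* (0.996, 0.996 and 0.994). For *Npc1* they were *Myo1f*, *Csf1r* and *Pnpla7* (0.964, 0.962 and 0.960), and for *Stard3* *Cnst*, *Tcirg1* and *Unc93b1* (0.935, 0.924 and 0.922). *Gramd1a* ran with *Mxd4*, *Baiap2* and *Pik3ip1* (0.973, 0.967 and 0.966), *Gramd1b* with *Gon4l*, *Fzd7* and *Slc6a17* (0.968, 0.957 and 0.946), *Osbp* with *Ptch1*, *Man1c1* and *Tbc1d16* (0.956, 0.936 and 0.933), and *Osbpl9* with *Pnpla8*, *Tatdn1* and *Sdcbp* (0.977, 0.973 and 0.973). These values were picked as the highest of 9647 per member, with the differences between groups left in. Shared regulation was not tested.

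Relatives and partners of the members were listed for comparison: lysosomal membrane proteins and regulators, START domain proteins, *Gramd1c*, OSBP-related proteins, contact-site docks, other sterol carriers, and oxysterol enzymes and receptors. Of these 51 genes 43 were tested. In WT cells cholesterol raised 1, *Osbpl8* (log2 0.24, s.e. 0.06, adjusted p = 0.0434, edgeR), an OSBP-related protein of the endoplasmic reticulum. It lowered 3: *Tmem97*, which binds NPC1 (-0.41, s.e. 0.06, adjusted p = 0.000438, edgeR), *Stard4*, a soluble sterol carrier (-0.51, s.e. 0.06, adjusted p = 2.8e-05), and *Insig1*, which holds SREBP processing back (-0.49, s.e. 0.06, adjusted p = 4.39e-05). In Trem2-/- cells 0 of the 43 were called. The same 4 genes were the ones called in the difference between the responses, at -0.42 for *Osbpl8*, 0.66 for *Tmem97*, 0.77 for *Stard4* and 0.71 for *Insig1*. That difference subtracts the WT response, so these calls rest partly on the same values and are not separate support. Over all genes, 1.66% were higher and 1.14% lower in the WT response. In the Trem2-/- response 0.140% were called, and in the difference between the responses 3.64%.

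Between the genotypes, 14 relatives were higher and 6 lower in Trem2-/- non-foamy cells, and 13 were higher and 5 lower in foamy cells, of 43 tested. Over all genes 21.0% were higher and 22.6% lower in the first comparison and 14.3% and 15.9% in the second. Their median log2 differences were 0.14 and 0.05, against 0.02 and 0.0003 for all genes. The 6 lower without cholesterol were *Stard4* (-0.92), *Tmem97* (-0.91), *Insig1* (-0.83), *Stard3nl* (-0.60), *Gpr183* (-0.34) and *Osbp2* (-3.89, at most 0.622 CPM). The 5 lower with it were *Stard3nl* (-0.37), *Fdxr* (-0.35), *Gpr183* (-0.33), *Tmem97* (-0.25) and *Tfe3* (-0.23). The lysosomal partners numbered 11, of which 7 were called higher and 1 lower in non-foamy cells, against 7 and 2 in foamy cells. *Scarb2*, a lysosomal membrane protein with a tunnel for cholesterol, was higher by 0.60 and 0.69 on the log2 scale, *Lamp2* by 0.58 and 0.44, and *Tfeb*, a transcription factor of lysosomal genes, by 0.81 and 0.40. *Tfe3*, its relative, had 0.02 without cholesterol, which did not pass, and -0.23 with it, which did. Among contact-site genes *Vapb* (0.43 and 0.36) and *Mospd2* (0.57 and 0.49), both docks on the endoplasmic reticulum for STARD3 or OSBP-type proteins, were higher in both states, and the other 5 of 7 did not pass. Of the oxysterol enzymes 4 were tested, *Cyp7b1* and *Cyp39a1* were at 0 counts in all libraries, and *Hsd3b7* had no row.

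The pathways that read or feed this transport were counted the same way. Over all genes, 1.66% were higher and 1.14% lower in the WT response, and 0.105% and 0.0351% in the Trem2-/- response. In the difference between the responses 1.99% were higher and 1.64% lower. Of 17 lysosomal hydrolases, 12 were higher in Trem2-/- non-foamy and 10 in Trem2-/- foamy cells and 0 were lower, with median log2 differences of 0.65 and 0.42, where over all genes 21.0% and 14.3% were higher and 22.6% and 15.9% lower. In WT cells cholesterol raised 3 of them, *Ctsb* (0.27), *Hexa* (0.23) and *Psap* (0.38), and in Trem2-/- cells 0. For the same genes the difference between the responses was also called lower (-0.38, -0.32 and -0.57). As it subtracts the WT response, these calls are not separate from those in WT cells. Of 9 tested LXR targets, cholesterol raised 4 in WT cells, *Abca1* (0.82), *Abcg1* (0.76), *Mylip* (0.47) and *Apoe* (0.31), and in Trem2-/- cells lowered 2, *Abca1* (-0.49) and *Mylip* (-0.44). The same 4 had a lower response in Trem2-/- cells, by -1.31, -1.19, -0.91 and -0.45, a difference that again holds their WT response. *Cyp27a1* had 0.35 in WT cells, -0.01 in Trem2-/- cells, which did not pass, and -0.36 in the difference between the responses. Between foamy genotypes *Cyp27a1* (0.49) and *Apoe* (0.77) were called higher, and *Abca1* (-0.04), *Abcg1* (0.02) and *Mylip* (-0.05) were not called. Other LXR targets, *Srebf1* (-0.64), *Scd2* (-0.33) and *Lpcat3* (-0.30), were called lower in that comparison.

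Of 12 tested SREBP2 targets, cholesterol lowered 11 in WT cells, among them *Idi1* (-0.96), *Msmo1* (-0.82), *Fdft1* (-0.82), *Cyp51* (-0.78), *Hmgcs1* (-0.58), *Sqle* (-0.54), *Stard4* (-0.51), *Insig1* (-0.49), *Lss* (-0.43) and *Sc5d* (-0.39). In Trem2-/- cells it raised 5 of the 12, among them *Idi1* (0.74), *Msmo1* (0.67), *Cyp51* (0.53) and *Fdft1* (0.43). In the difference between the responses, which again holds the WT response, 10 were higher, from 0.64 for *Sc5d* to 1.70 for *Idi1*. Their levels were lower in Trem2-/- than in WT cells for 12 of 12 without cholesterol (median log2 difference -0.97) and for 5 with it (median -0.13). For the LXR targets, 5 of 9 were higher and 1 lower in Trem2-/- non-foamy cells, and 1 was higher and 3 lower in foamy cells. Of 12 tested interferon targets 0 were called in either response, 3 were higher and 1 lower in Trem2-/- non-foamy cells, and 2 were higher and 2 lower in foamy cells. Over all genes 21.0% were higher and 22.6% lower in Trem2-/- non-foamy cells, and 14.3% and 15.9% in foamy cells. The WT response called 2.80% of all genes, the Trem2-/- response 0.140% and the difference between them 3.64%. The interferon counts are too small to read against these shares.

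Some members share sequence with other genes, and the strand setting of the counting is not stated, so reads of opposite-strand neighbours could have entered their counts. *Osbpl9* shared 9.04% of its exonic bases with *Nrd1* on the other strand, *Gramd1a* 8.07% and *Gramd1b* 1.97% with antisense or noncoding transcripts, and *Npc1* 5.31% with *Rmc1* and *Gm15956*. Stretches of 50 bases found in other genes made up 15.2% of *Osbpl9*, 5.76% of *Gramd1a* and 4.39% of *Npc1*. *Lipa*, *Stard3*, *Osbp* and *Cyp27a1* had 0 of either kind.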

How the data were processed

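RNA was sequenced from 15 BV2 libraries in 4 groups taken from the sample labels. The authors deposited raw read counts per gene, 1 table per library, without normalization; per the methods, reads were trimmed with Trimmomatic, aligned to GRCm38 (labelled mm10) with HISAT2 and counted by featureCounts within CHURP. Whether counting used strand is not given in the sources used here. Every row named a gene, and each library held at least 23538963 counts. Replicates differed by a chi-square per gene of 5.75 to 43.3, where counting noise alone gives about 1, so none was merged.

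Genes were kept with filterByExpr (minimum count 10), which left 14237 genes with 99.97% of the counts, and scaled with TMM factors (0.918 to 1.11). A mean for each group was fitted to the 15 libraries with the quasi-likelihood functions of edgeR 4.0.16 (glmQLFit, glmQLFTest; R 4.3.3), and p-values were adjusted by the Benjamini-Hochberg method over all tested genes at 0.05. Intervals are 95% intervals from the fitted coefficients. The biological coefficient of variation was 10.2%. The code was tested on simulated data. The 10 members, the lists, the motifs and the tests were chosen with earlier results of these data known, and no list was tested as a set. Named genes are all members, listed genes called in a response or in the difference between the responses, and the 3 closest patterns per member; the other listed genes named in the genotype comparisons were chosen after their values were seen. Some listed genes are counted but not reported here by name. Alternatives were DESeq2 1.42.0, RLE factors, total counts alone, other filters on low counts, the groups compared alone, a replicate block and leaving out each library. Removing trends on length and GC content, and leaving out the 2 libraries that run most steeply with length, were chosen after seeing the data. Exonic overlap and lengths come from GENCODE M21 and promoter windows from RefSeq.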

Additional observations from a re-analysis of the deposited data

Results flagged for a closer look

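A library stood apart from the other 3 of its group by Dixon's test in 4 of the 27 member groups of 4 libraries, where chance gives about 1 in 20. The members share the same libraries, so the 27 are not independent and their count cannot show an excess. *Npc2* reached 1419 CPM in WT non-foamy replicate 3, against 1121 to 1166 CPM in the others, and this is the library whose values ran most steeply with gene length. *Lipa* reached 268 CPM in WT foamy replicate 2, against 246 to 248 CPM. *Stard3* reached 35.5 CPM in WT non-foamy replicate 2, against 32.4 to 32.8 CPM, and 37.3 CPM in Trem2-/- foamy replicate 4, against 41.6 to 42.2 CPM. The latter library ran most steeply with GC content. No reason for these values was tested.

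The response of *Cyp27a1* to cholesterol differed between the genotypes, with a log2 difference of -0.36 (adjusted p = 0.0446, edgeR). It was called in 8 of 23 alternatives and in 4 of 15 fits without 1 library.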

How the results depend on the processing

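Of 1071 values of members under the alternatives, 1003 kept their direction and their side of the threshold, 25 kept the direction and lost the call, 28 gained a call, and 15 uncalled values turned sign. The number of members called in the WT response (1) became 3 with DESeq2, with the replicate block and with length and GC trends removed, and 2 with no filter, with at least 10 counts in every library and without both steep libraries; without 1 library it ranged from 1 to 3. In the difference between the responses (1) it became 2 with DESeq2 and with trends removed, and 0 with total counts alone and with the replicate block; without 1 library it ranged from 0 to 1. With no filter that 1 was *Npc1*, and without WT non-foamy replicate 3, or without both steep libraries, it was *Npc2*. The Trem2-/- response stayed at 0 in every alternative.

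Total-count scaling shifted the median of all genes to -0.125 and -0.129 between the genotypes, non-foamy and foamy; under it *Osbp* turned to -0.13 in non-foamy cells, and *Npc1* (foamy, 0.16), *Stard3* (non-foamy, 0.10) and *Osbpl9* (foamy, 0.11) lost their calls. Without both steep libraries *Osbp* had -0.12 in the WT response and -0.078 between non-foamy genotypes, and *Gramd1b* -0.066 in the WT response. Without 1 library, values that turned sign ran as follows: *Osbp* from -0.042 to 0.14 in the WT response and from -0.078 to 0.11 between non-foamy genotypes, *Osbpl9* from -0.071 to 0.018 and *Cyp27a1* from -0.072 to 0.025 in the Trem2-/- response.

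The replicate numbers do not pair the samples: 21 same-number pairs correlated at -0.105 to 0.143, 1 of them above 0.1, and 4 of 15 libraries correlated best with their own number. The block moved the calls as given above, and *Cyp27a1* had -0.38 (adjusted p = 0.0542, edgeR) in the difference between the responses. The fit on the groups compared alone gives no value for that difference, which needs all 4 groups.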
